A study of Mus musculus with 6 samples.

Results

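Huntingtin, the protein whose glutamine repeat is expanded in Huntington's disease, works as a scaffold and binds proteins of vesicle transport, endocytosis, lipid modification and transcription. The 8 genes examined here, out of 21911 protein-coding genes of the annotation, encode such partners and Hip1r, which is grouped with them as the relative and binding partner of Hip1. They are Hap1, a transport adaptor, Zdhhc17, an enzyme that attaches palmitate to huntingtin, the endocytic proteins Hip1, Hip1r, Sh3gl3 and Pacsin1, the striatal GTPase Rasd2, and the transcriptional coactivator Crebbp. They were chosen by name, with earlier results of these data known. Histone H3 trimethylated at lysine 4 (H3K4me3) lies on nucleosomes around the starts of active and poised genes, so a peak list of this mark shows which promoters carry it. It does not measure the amount of transcript.

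H3K4me3 ChIP-Seq was performed on conditionally immortalised striatal progenitor cells of the mouse, and 6 peak lists were deposited, 1 per condition. Q7SST is the wild-type STHdhQ7 line and Q111SST is the STHdhQ111 line, which carries mutant huntingtin as a homozygous knock-in, both kept for 24 hours in serum-free medium with vehicle. The other lists are STHdhQ111 cells given cyproheptadine, loxapine, diacylglycerol kinase inhibitor II (DKI) or meclizine at 10 uM, in the same medium for the same time. The series asked what protective compounds do to the epigenome of the mutant cells. The paper reports that few peaks differed between the mutant control and the compound-treated cells. The labels name the C57BL/6 strain for all samples, and serum was withdrawn in every condition, controls included. Each genotype is 1 cell line, so genotype and line cannot be told apart.

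A gene counted as marked in a list if any of its GENCODE M21 transcript starts had a peak no further than 1 kb away, and the strongest such peak was used. The peak score is the authors' whole number, whose scale is not stated, so strength is given as the percentile of that score among all peaks of the same list. Where 6 values follow each other they are in the order Q7SST, Q111SST, cyproheptadine, loxapine, DKI and meclizine. Since each condition had 1 list, the spread between replicates is unknown, and differences between lists were not tested. The 95% Wilson interval of a member's percentile reached at most 0.551 points to either side, and covers counting error only. In bulk chromatin, a mark in fewer cells and a weaker mark in each cell cannot be told apart.

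The lists held between 30758 (DKI) and 45564 (loxapine) peaks, with a lowest score of 10 in each, and the read depth behind them is unknown. Among markers of striatal and neural progenitors, Vim, Dlx1 and Dlx2 were marked in all 6 lists, and between 4 and 7 of 8 such genes were marked in each. Of 6 genes of mature striatal neurons, 4 were marked in Q7SST and 1 or 2 in each mutant list, and the dopamine receptor genes Drd1 and Drd2 in none. Of 7 genes of glia, microglia, endothelium and mesenchyme, 2 or 3 were marked per list. Among all protein-coding genes, between 55.4% and 59.9% were marked per list. Col1a1, a collagen gene, was marked in all 6 lists, while Cx3cr1 of microglia and Pecam1 of endothelium were marked in none. Aif1, also of microglia, had weak peaks in Q7SST and Q111SST alone, at percentiles 6.14 and 4.91. The glial gene Mbp had a weak peak with meclizine alone, at percentile 4.42. The smooth muscle actin gene Acta2 had a peak at percentile 86.5 in Q7SST and none in Q111SST, whereas the astrocyte gene Gfap had none in Q7SST and lay at percentile 54.7 in Q111SST, with a peak in all 5 mutant lists.

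Most of the partner genes carried the mark. In Q7SST, 7 of the 8 were marked, against 59.9% of all protein-coding genes. The count was 6 each in Q111SST (58.4% of all genes), loxapine (58.1%), DKI (55.8%) and meclizine (58.6%), and 5 for cyproheptadine (55.4%). Hap1, Hip1, Hip1r, Zdhhc17 and Crebbp were marked in all 6 lists, as were 53.5% of all genes. Rasd2 was marked in none, as were 37.0%. Sh3gl3 lacked a peak with cyproheptadine, and Pacsin1 had a peak in Q7SST alone.

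**Figure D1:**
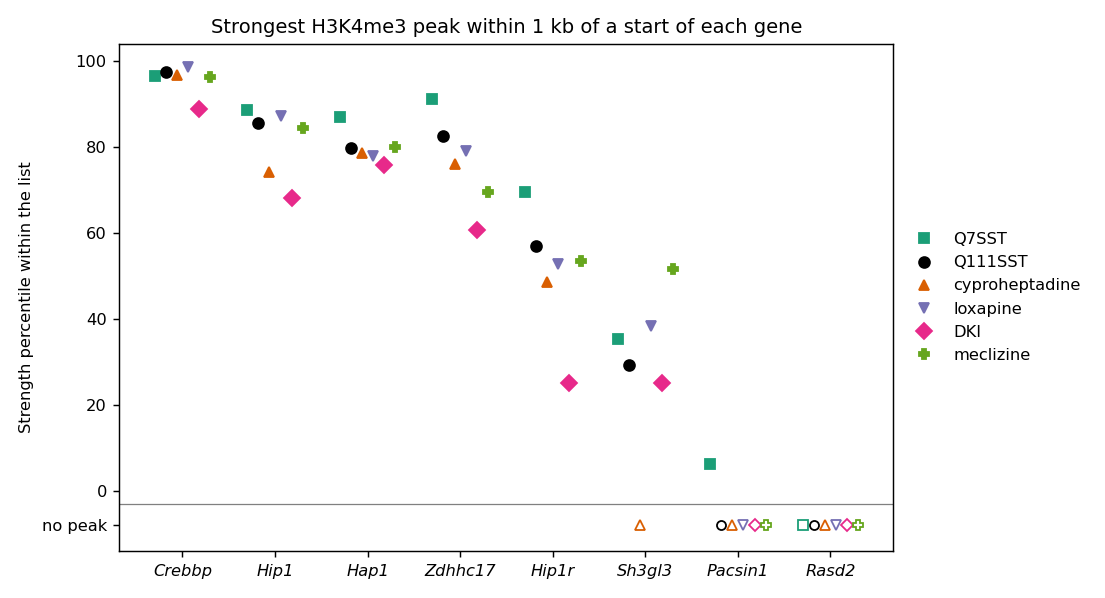
Strength percentile of the strongest H3K4me3 peak within 1 kb of a start (vertical axis, percent of the peaks in the same list) for each partner gene (horizontal axis), with 1 symbol per list and open symbols below the line where there was no peak. Crebbp stood above the other genes in all 6 lists, DKI gave the lowest value of each gene marked there, and Rasd2 had no peak.

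Crebbp ranked first among the members in every list, with percentiles from 88.8 to 98.7. Hip1, Hap1 and Zdhhc17 followed in an order that differed between lists, Hip1r came next and Sh3gl3 last of those marked in the mutant lists. For comparison, the median percentile over all marked genes was 80.4, 82.6, 79.5, 83.0, 76.3 and 80.3. Crebbp was above that median in every list, while Hip1r and Sh3gl3 were below it in every list that marked them. Hip1r and Sh3gl3 had the same score of 25 with DKI, so they tied at percentile 25.0. On the percentile among all peaks, Hip1r had the widest span over the lists, 44.5 points, and Crebbp the narrowest of those marked in all 6, 9.86 points. Such a span depends on where in the lists a gene lies. The scores of Crebbp ran from 116 to 214, and those of Hap1, with a span of 11.2 points, from 82 to 135.

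Hap1, on the minus strand of chromosome 11 (100347327 to 100356128, GRCm38), binds huntingtin and links it to dynactin and kinesin on microtubules. Its scores were 135, 102, 82, 95, 84 and 121, and its percentiles 87.0, 79.7, 78.6, 77.9, 75.8 and 80.1. Q7SST stood above the 5 mutant lists, which lay between 75.8 and 80.1. The Q111SST peak, chr11:100355179-100356727, ran from 599 bp upstream of the most 5′ start to 949 bp downstream and covered 3 of the 5 annotated starts, as did the peak of every other list. It spanned coding sequence (25.0% of its length), untranslated exon (8.01%) and intron (28.3%), with 38.7% of it upstream of the gene. Its width was 1660, 1549, 1339, 1555, 1404 and 1593 bp. No other peak lay in Hap1 or within 10 kb of it in any list. The 250 bases before the most 5′ start, chr11:100356129-100356378 (minus strand, GRCm38), are shown because they are among the poorest in CG dinucleotides of the partner genes, with 12, and yet lay wholly under the peak in all 6 lists. The sequences were read from the RefSeq copy of GRCm38.p6, with CG dinucleotides in capitals here and in those that follow.
Hap1: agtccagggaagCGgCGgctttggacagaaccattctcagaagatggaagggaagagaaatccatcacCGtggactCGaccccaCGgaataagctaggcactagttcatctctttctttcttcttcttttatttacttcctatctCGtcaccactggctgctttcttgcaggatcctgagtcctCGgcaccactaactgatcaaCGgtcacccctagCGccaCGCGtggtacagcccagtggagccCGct

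Zdhhc17, on the minus strand of chromosome 10 (110941780 to 111010140), encodes a palmitoyltransferase that huntingtin binds through its ankyrin repeats. The score of its peak ran from 59 with DKI to 152 in Q7SST, and the percentiles were 91.1, 82.6, 76.0, 79.0, 60.6 and 69.5. Q7SST was highest, and DKI and meclizine were the lowest. The peak was broad in every list, with widths of 3190, 3074, 2861, 3353, 2848 and 3231 bp, and it covered 6 of the 10 annotated starts each time. Among the strongest peaks of all marked genes its width lay between percentile 94.5 and percentile 97.3. The widest was with loxapine and the narrowest with DKI. A weaker region inside the gene, chr10:110952260-110954044, was found in all 6 lists, at percentiles 49.1, 62.5, 49.6, 57.3, 50.8 and 62.6. Meclizine also had a peak of score 17 over an internal start at 110961083, where no other list had a peak.

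Hip1, on the minus strand of chromosome 5 (135406531 to 135545120), encodes an endocytic adaptor that binds clathrin and membrane lipids. At its 5′ start the scores were 141, 122, 74, 125, 70 and 136 and the percentiles 88.6, 85.7, 74.3, 87.3, 68.0 and 84.4. Cyproheptadine and DKI stood below the other lists, which lay between 84.4 and 88.6. Widths of this peak varied little, from 1910 to 2107 bp, and the Q111SST peak, chr5:135543784-135545880, covered the start, with 36.2% of its length upstream of the gene, 55.0% in intron and 8.77% in exon. An internal start at 135489258 had a peak of its own in all 6 lists. Its scores were 90, 83, 48, 83, 38 and 81 and its percentiles 71.9, 72.8, 56.9, 73.1, 41.9 and 65.3. Cyproheptadine and DKI were the lowest there too. These starts lie in the same gene, so they are not independent measurements.

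Between these starts of Hip1 lay further regions with no annotated start within 1 kb. The region chr5:135521875-135523030 was found in all 6 lists, with percentiles of 76.0, 65.6, 61.7, 78.7, 55.1 and 53.5. The region chr5:135505158-135506007 was found in the 5 lists of the mutant line and not in Q7SST. It was strongest with meclizine, at percentile 71.4 and a score of 96, followed by Q111SST at percentile 52.3, loxapine at 39.5, DKI at 18.5 and cyproheptadine at 14.4. A weak region, chr5:135531299-135531761, was found in Q111SST, loxapine and meclizine, with scores from 17 to 27.

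**Figure D2:**
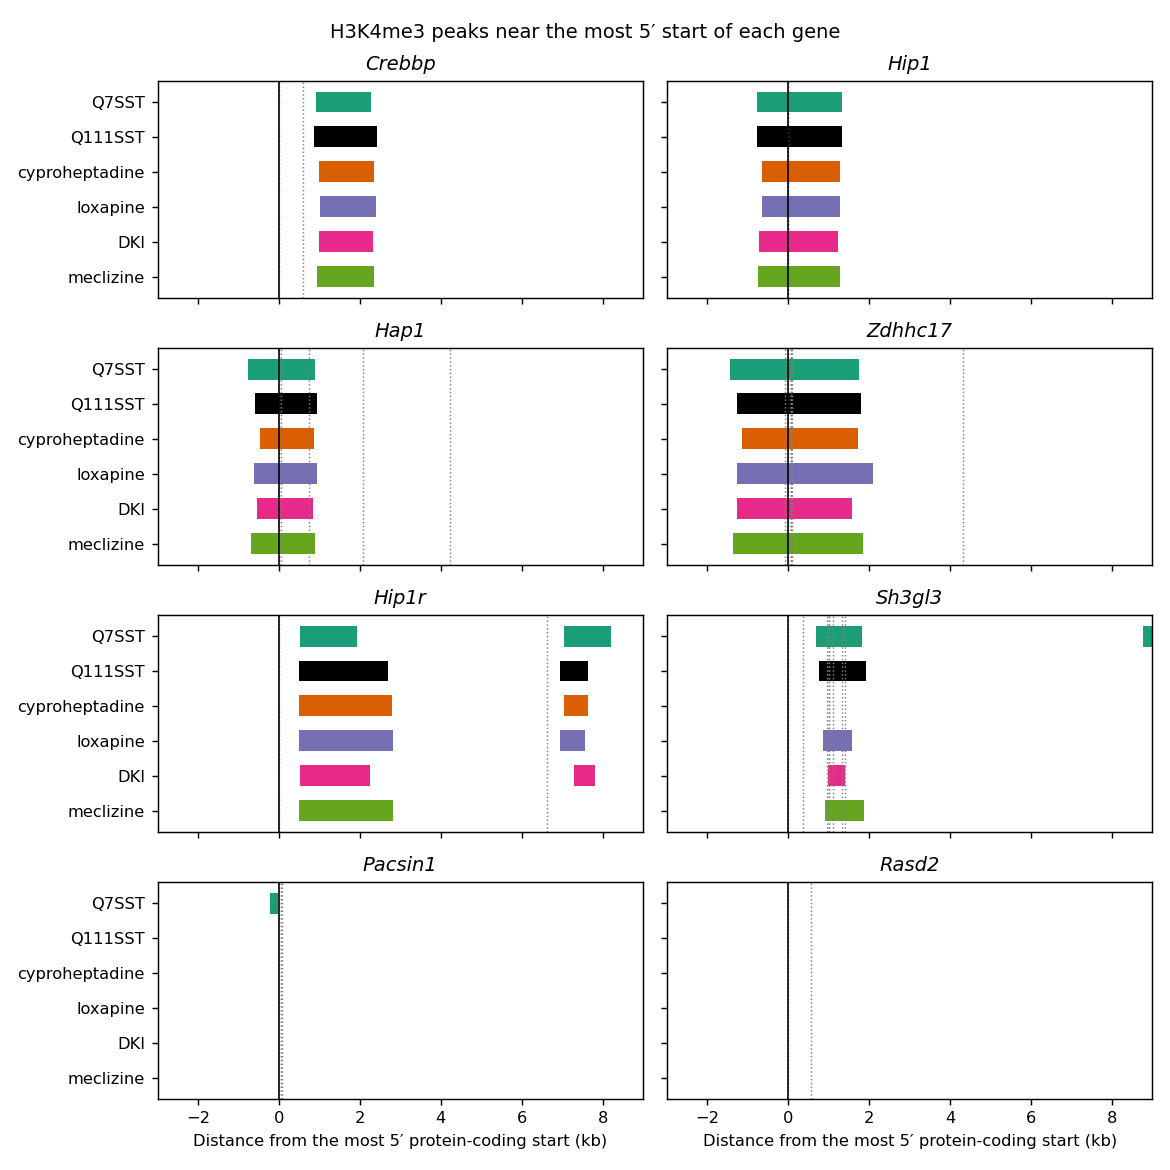
Peaks near the most 5′ protein-coding start of each partner gene, with distance from that start in kb along the direction of transcription (horizontal axis), 1 row and colour per list, a solid line at the start and dotted lines at the other annotated starts. The peaks of Hap1, Hip1 and Zdhhc17 cover a start, those of Crebbp and Hip1r begin downstream of it, and Rasd2 has none.

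Hip1r, on the plus strand of chromosome 5 (123973628 to 124005558), is the close relative of Hip1 and also binds actin. Its scores were 84, 52, 39, 49, 25 and 59 and its percentiles 69.5, 56.9, 48.6, 52.8, 25.0 and 53.5. Q7SST stood highest and DKI lowest. In all 6 lists the peak lay wholly in intron, and its near edge was between 497 and 517 bp downstream of the most 5′ start. It was therefore counted by the 1 kb window and not by a peak over a start. Its width was 1408 bp in Q7SST, where the score was highest, and 2198, 2293, 2321, 1744 and 2324 bp in the mutant lists. The Q7SST peak, chr5:123974145-123975552, and the Q111SST peak, chr5:123974127-123976324, began close to the same place, and the Q111SST peak reached further into the gene. Between these controls, Hip1r thus had the higher percentile in the list with the narrower peak. The 250 bases before the start, chr5:123973378-123973627 (plus strand), hold 18 CG dinucleotides and are shown because no list had a peak over them, although they hold 4 copies of the GC box motif (GGGCGG, either strand).
Hip1r: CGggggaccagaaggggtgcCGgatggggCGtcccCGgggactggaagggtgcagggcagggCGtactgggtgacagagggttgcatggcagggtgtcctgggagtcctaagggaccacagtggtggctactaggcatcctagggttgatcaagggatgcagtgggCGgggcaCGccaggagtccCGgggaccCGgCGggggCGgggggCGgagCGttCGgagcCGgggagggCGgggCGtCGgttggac

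An internal start of Hip1r at 123980254 had a weak peak between 313 and 672 bp from it in every list except meclizine. In the 5 lists that held it, the percentiles were 7.83, 18.7, 32.0, 17.7 and 9.61. Here cyproheptadine was highest and Q7SST lowest, unlike at the most 5′ start. A region further into the gene, chr5:123992026-123993748, was found in all 6 lists at percentiles 35.2, 52.3, 41.8, 22.7, 11.4 and 35.9, with Q111SST the highest and DKI the lowest.

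Sh3gl3, on the plus strand of chromosome 7 (82173840 to 82307419), encodes an endophilin, a protein that bends membranes during endocytosis and binds the proline-rich part of huntingtin. It was the weakest of the genes marked in several lists, with scores from 25 with DKI to 56 with meclizine. Its percentiles were 35.2 in Q7SST, 29.3 in Q111SST, 38.3 with loxapine, 25.0 with DKI and 51.6 with meclizine. Meclizine stood apart at the top, and Q111SST and DKI lay at the bottom. The peak was 1122 bp wide in Q7SST, 1179 bp in Q111SST, 726 bp with loxapine, 436 bp with DKI and 978 bp with meclizine, so the list with the highest percentile did not hold the widest peak. With cyproheptadine the nearest peak was 17207 bp from the closest annotated start of the gene. A start of the uncharacterised gene Gm45089, on the minus strand, also lies within 1 kb of the peak, and the mark cannot be assigned to either gene. A region inside Sh3gl3, chr7:82192441-82192895, was found with cyproheptadine, loxapine and meclizine, at percentiles 10.1, 42.7 and 26.3, and not with DKI or in either vehicle control.

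Pacsin1, on the plus strand of chromosome 17 (27655509 to 27711482), encodes a neuronal membrane-bending protein of synaptic endocytosis. Its only peak near a start was in Q7SST, chr17:27655287-27655483, with a score of 18, percentile 6.14 and a width of 197 bp. It lay 26 bp upstream of the most 5′ start. In the 5 mutant lists the nearest peak to that start was between 19686 and 19818 bp away. The peak was near the lowest score of the list and is absent when each list is reduced to its strongest 30758 peaks. Of 9121 genes not marked in Q111SST, 8.64% were marked in Q7SST, and among the members this was 1 of 2, Pacsin1, with Rasd2 the other. The sequence under the peak is shown whole because it carries the only promoter mark of this gene, and it holds 15 CG dinucleotides.
Pacsin1: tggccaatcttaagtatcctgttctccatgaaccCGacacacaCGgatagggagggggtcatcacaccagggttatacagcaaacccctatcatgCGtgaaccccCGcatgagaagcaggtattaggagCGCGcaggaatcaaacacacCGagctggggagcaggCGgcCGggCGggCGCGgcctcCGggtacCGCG

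Near the 3′ end of Pacsin1 a region at chr17:27707825-27708603 was found in every list except DKI. It was strongest with loxapine, at percentile 52.0, and lay at percentile 28.3 in Q7SST, 36.8 in Q111SST, 32.0 with cyproheptadine and 34.8 with meclizine. It lies more than 1 kb from the nearest annotated start, so it did not count as a promoter mark, and in Q7SST it ranked above the promoter peak. The start of the RefSeq transcript of Pacsin1 at 27685239 had no peak within 1 kb in any list.

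Rasd2, on the plus strand of chromosome 8 (75213944 to 75224113), encodes Rhes, a small GTPase enriched in striatal neurons that binds mutant huntingtin. No list had a peak in the gene or within 10 kb of it. The nearest peak to its most 5′ start was 103003, 103049, 103070, 20245, 103652 and 20249 bp away, so the nearest peaks with loxapine and meclizine were nearer but still distant. Its relative Rasd1 was marked in all 6 lists, at percentiles from 85.2 to 93.2. The 250 bases before the Rasd2 start, chr8:75213694-75213943 (plus strand), hold 27 CG dinucleotides and are shown because promoters with so many CG usually carried the mark in these cells.
Rasd2: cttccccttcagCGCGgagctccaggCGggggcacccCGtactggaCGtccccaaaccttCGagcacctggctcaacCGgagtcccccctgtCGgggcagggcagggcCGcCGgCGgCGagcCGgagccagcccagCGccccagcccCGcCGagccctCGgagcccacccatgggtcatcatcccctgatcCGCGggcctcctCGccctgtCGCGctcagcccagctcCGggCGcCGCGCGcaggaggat

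Crebbp, on the minus strand of chromosome 16 (4081328 to 4213997), encodes the CREB binding protein, a histone acetyltransferase found in aggregates of mutant huntingtin. Its scores were 189, 188, 146, 214, 116 and 203 and its percentiles 96.7, 97.4, 96.8, 98.7, 88.8 and 96.3. Every list but DKI placed it between percentile 96.3 and percentile 98.7. The peak was of ordinary width, 1362, 1538, 1350, 1392, 1355 and 1425 bp, between percentile 29.7 and percentile 42.5 of the widths of marked genes. As at Hip1r, it lay wholly in intron and covered no annotated start in any list. Its near edge was 322, 294, 406, 421, 397 and 352 bp downstream of a start at 4213413, and between 878 and 1005 bp downstream of the most 5′ start at 4213997. In Q111SST it was chr16:4211582-4213119. The 250 bases before the most 5′ start, chr16:4213998-4214247 (minus strand), are shown because they hold 32 CG dinucleotides and lay outside the peak of every list.
Crebbp: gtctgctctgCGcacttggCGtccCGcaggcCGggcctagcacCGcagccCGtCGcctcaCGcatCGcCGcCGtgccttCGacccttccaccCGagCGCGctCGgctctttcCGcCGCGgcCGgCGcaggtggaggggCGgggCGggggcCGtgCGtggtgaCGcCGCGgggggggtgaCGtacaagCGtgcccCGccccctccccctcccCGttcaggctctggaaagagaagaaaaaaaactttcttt

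Peaks that covered no annotated start were a minority among all marked genes, 11.5%, 11.7%, 18.0%, 16.3%, 15.3% and 10.6% in the 6 lists, and the members of this kind were Hip1r and Crebbp in each, with Pacsin1 in Q7SST. Inside Crebbp, the region chr16:4160342-4161645 was found in every list except DKI, at percentiles of 44.4, 60.2, 37.9, 44.7 and 45.5. The region chr16:4199367-4200492 was found in the 5 mutant lists and not in Q7SST, like the Hip1 region above. Of the 13 internal regions of the members, those over a gene body with no start within 1 kb, 2 had this pattern, against 7.67% of all 21321 such regions. Another 3 were found in all 6 lists, against 20.6%, and 2 in every list except DKI, against 2.86%. A region in Sh3gl3, chr7:82182613-82183174, was found in Q7SST alone, 1 of 13 against 14.7%. With so few regions these shares are a description. The Crebbp region absent from Q7SST lay at percentile 6.76 in Q111SST, between 22.0 and 24.9 with cyproheptadine, DKI and meclizine, and at 55.1 with loxapine.

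**Figure D3:**
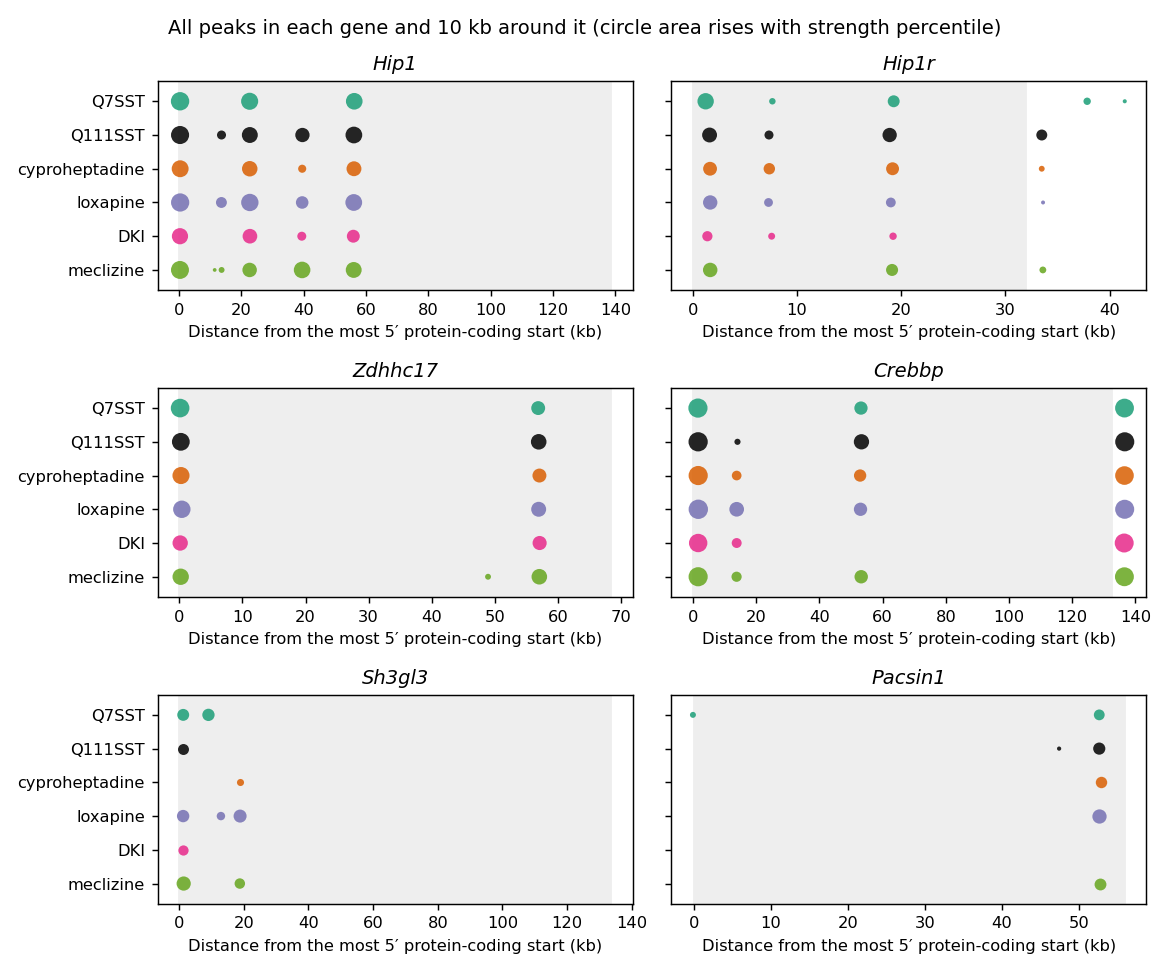
All peaks in 6 of the genes and the 10 kb to either side, as circles at the peak's centre (horizontal axis, kb from the most 5′ protein-coding start along the direction of transcription), with 1 row per list, area rising with the strength percentile, and the gene shaded grey. Hip1 and Crebbp each have an internal region in the 5 mutant lists that Q7SST lacks, a pattern of 7.67% of all internal regions, and a region of Sh3gl3 is in Q7SST alone. The region near the 3′ end of Pacsin1 is missing with DKI. The region to the right of Crebbp lies at the start of its neighbour Trap1.

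The first comparison was of the vehicle controls, wild-type against mutant. Of the 6 members marked in both, Hap1, Hip1, Hip1r, Zdhhc17 and Sh3gl3 had a higher percentile in Q7SST than in Q111SST, and Crebbp a lower one. Among all 12335 genes marked in both, 41.9% were higher in Q7SST. Hip1r was 12.5 points higher, a difference at least matched by 6.74% of all genes. It began at percentile 56.9 in Q111SST, where the median marked gene lay at 82.6, so most genes had less room to rise. Zdhhc17 was 8.51 points higher, Hap1 7.29, Sh3gl3 5.94 and Hip1 2.93, while Crebbp was 0.762 points lower. The median difference was 6.62 points over the members and -1.04 points over all genes. No member was lower by at least 10 points, as 13.0% of all genes were. Measured among marked promoters in place of all peaks, the same 5 of 6 members were higher, against 53.2% of all genes. There Zdhhc17 was 27.1 points higher, Hap1 23.1, Hip1r 16.2, Hip1 12.5 and Sh3gl3 2.13. With lists of equal size Hip1r was 18.4 points higher, Sh3gl3 12.0, Zdhhc17 11.8, Hap1 10.4 and Hip1 4.59. When peaks with a score under 47 were removed, Hip1r was 33.4 points higher, Zdhhc17 20.0, Hap1 18.4 and Hip1 8.80, and Sh3gl3 had no peak left in either list. The 5 members kept their direction on each of these scales where they had a value, while the sizes differed. Of the 6 genes of mature striatal neurons, 4 were marked in Q7SST and 2 in Q111SST, and the part of such differences in the members' values was not tested.

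Each compound was then set beside Q111SST. The 5 comparisons share the Q111SST list, so a member that happened to be high or low there would move the same way in all of them. With DKI, 0 of 6 members had a higher percentile than in Q111SST, against 21.7% of all 12158 genes marked in both. Hip1r was 31.9 points lower with DKI, and 3.69% of all genes were lower by as much or more, but among marked promoters its difference was -8.50 points. Zdhhc17 was 22.0 points lower (12.0% of genes) and Hip1 17.6 points lower (19.3%), and with peaks under a score of 47 removed these differences were -42.6 and -34.1 points. On whole lists Hip1r, Zdhhc17 and Hip1, 3 of 6 members, were lower by at least 10 points, against 38.8% of all genes. Crebbp, Sh3gl3 and Hap1 were 8.60, 4.29 and 3.88 points lower, and the sign for Sh3gl3 and Hap1 depended on the scale. For Crebbp the difference was -17.3 points among marked promoters and -17.1 with those peaks removed. The median was -13.1 points over the members and -6.57 over all genes.

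**Figure D4:**
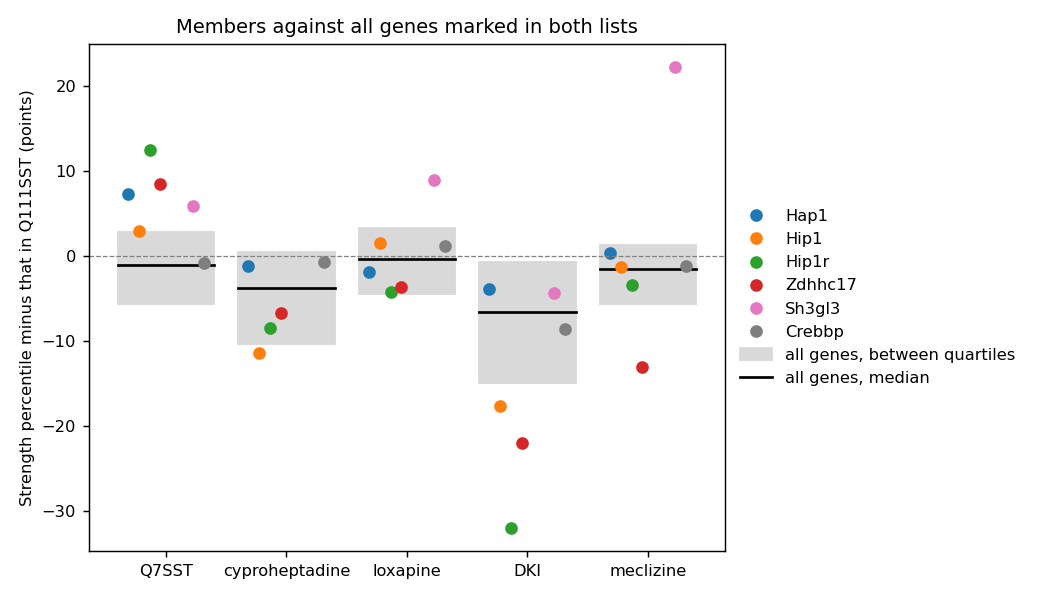
Strength percentile in each list minus that in Q111SST (vertical axis, points) for the partner genes marked in both lists (coloured points), with the span between the quartiles of all genes marked in both as a grey box and their median as a black line. In Q7SST all members but Crebbp lie above the box. Hip1 lies below it with cyproheptadine, Hip1, Zdhhc17 and Hip1r with DKI, and Zdhhc17 with meclizine, while Sh3gl3 lies above it with loxapine and meclizine.

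With cyproheptadine, 0 of 5 members were higher, against 27.7% of all genes marked in both. Hip1 was 11.3 points lower, Hip1r 8.37 and Zdhhc17 6.62, whereas Hap1 and Crebbp were lower by 1.15 and 0.637 points. For Hip1 the difference was -27.5 points when peaks with a score under 47 were removed and -18.1 among marked promoters, and for Zdhhc17 it was -17.2 with those peaks removed. On whole lists Hip1 was the 1 member of 5 lower by at least 10 points, against 25.9% of all genes. Sh3gl3, at percentile 29.3 in Q111SST, had no peak with cyproheptadine. It was the 1 member lost of the 6 marked in Q111SST, and 5.70% of all marked genes were lost. The median difference was -6.62 points over the members and -3.74 over all genes, but -0.138 beside -1.03 with lists of equal size and -1.70 beside -2.59 among marked promoters. The larger drop of the members was therefore seen on whole lists and on neither of these scales.

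The counts for DKI and cyproheptadine depended on the scale, and these lists were the shortest of the series. When each list was reduced to its strongest 30758 peaks, Hap1 and Sh3gl3 were higher with DKI than in Q111SST, 2 of 6 against 40.7% of all genes, and Hap1 and Hip1r were higher with cyproheptadine, 2 of 5 against 43.5%. In these lists of equal size Sh3gl3 was 17.9 points higher with DKI and Hap1 2.48 points higher, while Hip1r was 18.4 points lower, Zdhhc17 16.5 and Hip1 13.1. Hip1 was 9.32 points lower with cyproheptadine. The median over the members with DKI was -10.5 points, beside -1.83 over all genes, again with lists of equal size. Measured among marked promoters, 2 of 6 members were higher with DKI, against 41.2%, and 1 of 5 with cyproheptadine, against 39.7%. On that scale the DKI differences were -23.2 points for Zdhhc17 and -21.2 for Hip1, and Sh3gl3 lay at 0.0945 and Hap1 at 6.49.

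With loxapine the members did not move one way. Hip1, Sh3gl3 and Crebbp were higher, 3 of 6 against 46.8% of all genes, and with lists of equal size 2 of 6 against 35.8%. The differences ran from 4.14 points lower for Hip1r to 9.02 points higher for Sh3gl3. On whole lists no member was lower by at least 10 points, against 9.41% of all genes, but with lists of equal size Hip1r differed by -13.4 points, Zdhhc17 by -8.18 and Hap1 by -6.07. Sh3gl3 was 2.18 points higher among marked promoters. The median difference was -0.269 points over the members and -0.352 over all genes on whole lists, -3.04 beside -2.57 with lists of equal size, and 0.596 beside -0.629 among marked promoters, so its sign depended on the scale.

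With meclizine, Sh3gl3 and Zdhhc17 parted from the other members. Sh3gl3 was 22.3 points higher than in Q111SST, and 0.983% of all genes were higher by as much or more, but among marked promoters it was 7.67 points higher. It began at percentile 29.3 in Q111SST, where the median marked gene lay at 82.6, so most genes had less room to rise. Zdhhc17 was 13.1 points lower, and 5.26% of genes were lower by as much or more, and among marked promoters its difference was -20.7 points. It was the 1 member of 6 lower by at least 10 points, against 10.0% of all genes. Hap1 was 0.345 points higher, so 2 of 6 members were higher, against 35.4% of all genes. The Hap1 difference was 7.08 points with peaks under a score of 47 removed and 6.23 among marked promoters. With percentiles among marked promoters, 4 of 6 were higher, against 49.2%, with Hip1 and Hip1r the additions. Hip1, Hip1r and Crebbp lay between 1.10 and 3.39 points lower on the percentile among all peaks, near the median of all genes of -1.54.

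Of 9 close relatives of the members, 8 were marked in all 6 lists, against 53.5% of all genes. Trak1 and Trak2, adaptors of mitochondrial transport related to Hap1, lay between percentile 89.2 and percentile 95.2 and between percentile 72.1 and percentile 82.7. Zdhhc13, the other ankyrin-repeat palmitoyltransferase, lay between 82.1 and 92.3, and Ep300, the paralogue of Crebbp, between 85.9 and 93.7. Pacsin2 and Pacsin3, the more widely expressed relatives of Pacsin1, lay between 79.4 and 95.2 in all 6 lists, in contrast to the single weak peak of Pacsin1. Sh3gl1, which encodes a widely expressed endophilin, lay between 62.7 and 72.6, above Sh3gl3 in each list. The exception was Sh3gl2, which encodes the brain endophilin and had a peak only with meclizine, with a score of 14 at percentile 1.57. Meclizine was thus the list in which both Sh3gl3 and Sh3gl2 ranked highest, although the Sh3gl2 peak was close to the lowest score listed.

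A further 15 genes for proteins that bind huntingtin or one of its partners, chosen by name, were all marked in all 6 lists, as were 53.5% of all genes. They include Optn, an autophagy receptor, Dctn1, a dynactin subunit, Setd2, a histone methyltransferase, Ube2k, a ubiquitin-conjugating enzyme, and F8a, whose product links huntingtin to endosomes. Their median percentile was 80.4, 84.9, 81.8, 90.6, 84.0 and 83.6. Against Q111SST, 6 of the 15 were higher in Q7SST and 6 for cyproheptadine, 13 for loxapine, 7 for meclizine and 2 for DKI. These counts stand beside the shares of all genes given above, 41.9%, 27.7%, 46.8%, 35.4% and 21.7% for the same lists, and were not tested.

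The promoter sequences of the members were compared with those of all genes. RefSeq (GRCm38.p6) gave 32851 promoters, each read over the 250 bases before the start, and all 8 members matched. The median promoter held 6 CG dinucleotides, and every window of a member held more. The RefSeq window of Crebbp, before a start downstream of the one shown above and wholly in an annotated exon, held 44, and the windows of Zdhhc17 held 42 and 37, partly in exon, and 0.539% and 0.865% of all promoters held at least as many as Crebbp and as the richer window of Zdhhc17. Rasd2 held 27 and Pacsin1 26 at its RefSeq start, more than the windows of Hip1 (24 and 14), Hip1r (18), Hap1 (12 and 11) and Sh3gl3 (11). The counts depend on the start, since the 250 bases before the most 5′ GENCODE start held 32 at Crebbp, 17 at Pacsin1 and 0 at Sh3gl3. At their RefSeq starts, the members without a promoter mark in the mutant lists were therefore not the ones with the fewest CG.

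**Figure D5:**
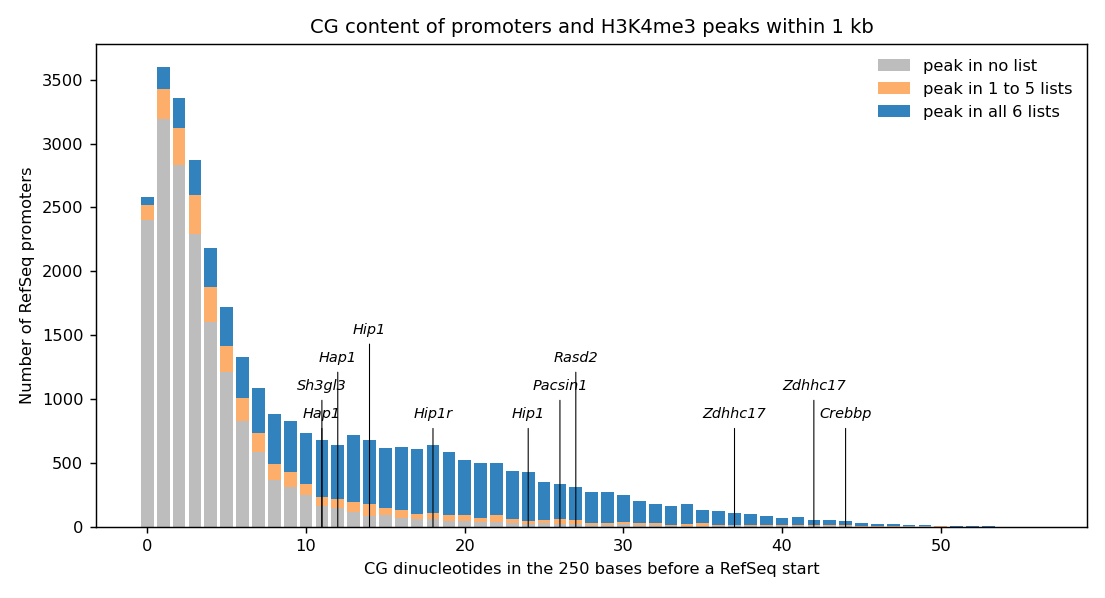
Number of RefSeq promoters (vertical axis) by the count of CG dinucleotides in the 250 bases before the start (horizontal axis), coloured by whether a peak lay within 1 kb in none, some or all of the 6 lists, with lines at the counts of the partner genes. Rasd2, at 27, and Pacsin1, at 26, fall in a range where most promoters had a peak in all 6 lists.

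Of the 3944 promoters with 20 to 29 CG dinucleotides, 85.2% had a peak within 1 kb in all 6 lists and 7.00% in none (95% Wilson interval 6.24% to 7.84%). Rasd2 and the RefSeq start of Pacsin1 were among the latter. By contrast, 84.5% of the promoters with 0 to 4 CG had a peak in no list. Of short motifs searched on both strands, the GC box (GGGCGG) was present in 32.7% of all promoters, the CCAAT box in 33.8% and the TATA box (TATAAA) in 12.4%. The window of Hip1r held 4 GC boxes, and Hip1 (both windows), Sh3gl3, Crebbp and Pacsin1 held 1 or 2 each. Hip1 and Sh3gl3 held 1 CCAAT box each. Rasd2, Hap1 and Zdhhc17 held none of the 3 motifs, and no member held a TATA box. These are letters in a window, not sites.

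Genes whose percentiles were most like those of each member over the 6 lists were found by the mean absolute difference, with a list that had no peak counted as percentile 0. For Crebbp these were Eid1 (0.553 points) and Nubp1 (0.770), and for Hap1 they were Hsf2bp and Rrp1b (both 0.750), which had equal values in every list. For Hip1 they were Med30 (1.38) and Tmem147 (1.48), for Zdhhc17 Rhod (2.20) and Esyt2 (2.67), and for Hip1r Comp (2.21) and Itga6 (2.85). Sh3gl3 had no close match, the nearest being Cfap44 (5.89 points) and Cul7 (6.03). Neither Sh3gl3 nor Cfap44 had a peak with cyproheptadine, whereas Cul7 lay at percentile 14.4 there. For Pacsin1, 15 genes shared its exact pattern, a peak of the same score in Q7SST and none elsewhere, Adtrp and Dach2 among them. These matches rest on 6 lists and on the same libraries.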

How the data were processed

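The authors deposited 1 list of H3K4me3 peaks per condition, with a whole-number score for each peak. The scale of the deposited score, the peak-calling thresholds, any input control and the treatment of replicates are not given in the sources used here. The design text describes triplicate treatment. The submitters' processing notes name Trimmomatic 0.36, Bowtie2, SAMtools 1.3, MACS2 and mm10, with no role or order. Chromatin was digested with micrococcal nuclease, whose preference for linker DNA can shape peak edges.

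No peak ran past the GRCm38 length of any of 21 chromosomes. Genes were marked by peaks within 1000 bp of any GENCODE M21 transcript start. Strength was the mid-rank percentile of the score within the list. Differences between lists were taken only for genes marked in both, while the search for genes most like a member counted an unmarked list as 0. samtools 1.23.1, pysam 0.24.0, scipy 1.17.1, pandas 2.3.3, numpy 2.4.6 and Python 3.11.15 were used, and the scripts were tested on simulated data. Read depth is unknown, since the lists give no read counts.

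The members, the related genes and the marker lists were chosen by name with earlier results of these data known. Named genes were all members, their relatives, further partners as counts, neighbours with a start within 1 kb of a member's peak, and the 2 genes most like each member marked in any list. Outside that rule, 5 further partners and the markers given with values were named after their values were seen. Alternatives were a score filter at the pooled median of 47, lists cut to the strongest 30758 peaks, windows of 0 or 5 kb, merging of peaks within 1 kb, protein-coding transcripts alone, percentiles among marked promoters, and summed widths.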

Additional observations from a re-analysis of the deposited data

How the results depend on the processing

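No paired analysis was possible because there was a single peak list for every condition. All alternatives were planned. With a peak required over a start itself, 4 members were marked in Q7SST and 3 with cyproheptadine, in place of 7 and 5, because Hip1r, Crebbp and Pacsin1 had no start under a peak. The other 34 counts of marked members were within 1.5 times of the values reported. With lists of equal size, 2 members were higher than in Q111SST with cyproheptadine and 2 with DKI, in place of 0 and 0. With percentiles among marked promoters, 1 was higher with cyproheptadine, 2 with DKI and 4 with meclizine, in place of 0, 0 and 2. The cause of these shifts was not tested. The other 30 such counts did not move by over 1.5 times.

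The 7 differences of at least 10 points kept their sign under each alternative that gave a value, which was 5 to 7 per difference. Hip1r with DKI ran from -31.9 to -8.50 points and Sh3gl3 with meclizine from 7.67 to 32.1, both nearest 0 with percentiles among marked promoters. With the score filter, Hip1r had no peak with cyproheptadine or DKI and Sh3gl3 remained marked with meclizine only. With a start within 5 kb, Pacsin1 was marked in every list except DKI. Of the single percentiles, 95 moved beyond their counting interval and 136 did not, and 13 widths moved while 218 did not. A weak peak absent from a list was not detected there, which does not show that the mark was absent.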

Other observations

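Some markers of cell identity also differed between the control lists. Of the 5 progenitor markers marked in both, 2 ranked higher in Q7SST and 3 lower. Nes, which encodes the intermediate filament of neural progenitors, had a peak at percentile 90.7 in Q7SST and at percentile 41.9 in Q111SST. Sox2, a progenitor transcription factor, was not marked in Q7SST and lay at percentile 65.6 in Q111SST. The rest of the markers found in both lay close together, Vim at 54.7 in both, Dlx1 at 89.1 and 88.6, Dlx2 at 41.3 and 45.2, and Pax6 at 16.9 and 20.6. Gsx2 was marked in Q7SST alone, at percentile 2.76. Among genes of mature striatal neurons, Penk, which encodes the precursor of enkephalin, lay at percentile 63.5 in Q7SST and 24.2 in Q111SST, and Ppp1r1b, which encodes a phosphatase inhibitor of dopamine signalling, at 49.1 and 25.9. Adora2a and Tac1 were marked in Q7SST alone. These differences stand beside the higher percentiles of Hap1, Hip1r and Zdhhc17 in Q7SST, and their part in those was not tested.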
